A study of Mus musculus with 18 samples.

Results

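The cytoplasmic alanine, glycine and proline tRNAs of the mouse brain were described from small RNA sequencing of microglia, astrocytes and neurons. Their members were every tRNA gene named for alanine, glycine or proline in the deposited table, 77 gene copies of the 407 cytoplasmic tRNA gene copies listed. Copies were summed per isodecoder, a tRNA with its own sequence, and per anticodon, giving 40 of 218 isodecoders and 10 of 51 anticodons. Alanine had 24 isodecoders from 34 gene copies, glycine 10 from 27 copies, and proline 6 from 16 copies.

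The study compared Atxn2-CAG100-KIN mice, a knock-in model of spinocerebellar ataxia type 2 in which the mouse Atxn2 gene carries an expanded CAG repeat, with wild-type (WT) mice. The KIN animals were homozygous, and both genotypes were 10 months old. The paper describes same-sex pairs of KIN and WT littermates, some male and some female, and the labels give neither sex nor pair. Each brain was dissociated and sorted with magnetic beads, first microglia by CD11b, then astrocytes by ACSA-2, and last the neurons as the cells that a non-neuronal antibody cocktail and CD31 beads did not retain. Each of the 6 groups (astrocytes, microglia and neurons, each WT and KIN) held 3 libraries. The repeat is in the gene itself, so every sorted cell type of a KIN animal carried it, and the sorts are enrichments from whole brain and not pure cells.

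A tRNA carries 1 amino acid to the ribosome and reads the codon with its anticodon, written here 5′ to 3′ in DNA letters as in the gene names. Several isodecoders share an anticodon and differ elsewhere in the molecule, and vertebrate genomes hold many identical copies of the same isodecoder, transcribed by RNA polymerase III. In anticodons that begin with A, such as AGC of alanine and AGG of proline, the adenosine is normally deaminated to inosine, which widens the codons that can be read. Stressed cells cleave tRNAs in the anticodon loop, with angiogenin as the best known nuclease, and 5′ fragments of tRNA-Gly-GCC are among the common small RNAs of many tissues. The counts used here do not tell a whole tRNA from its fragments.

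Library totals ran from 1211118 to 4316748 counts, and the lowest were WT neurons (1211118 to 1956491). Microglia libraries bore out their label by the myeloid miR-142a-3p, at 2290 to 5090 CPM (counts scaled to the library total, without further normalization), against 7.00 to 39.6 in astrocytes and 29.7 to 296 in neurons. The neuronal marker miR-124-3p went against the label of the neurons, at 41.3 to 162 CPM against 677 to 2538 in astrocytes, and astrocytes also held the oligodendrocyte marker miR-219a-2-3p (383 to 693 CPM). WT neurons replicate 2 stood apart from the other 5 neuron libraries. Its mitochondrial tRNAs made up 4.03% of the counts against 0.238% to 0.723%, its miR-219a-2-3p was 56.7 CPM against 0 to 4.69, and its whole tRNA share was 10.6% against 2.94% to 5.88%. The 3 KIN libraries numbered 1 held 4 or 5 counts of Xist, the RNA of the inactive X chromosome, against 44 to 88 in the other 6 KIN libraries and 12 to 102 in WT, and the part of this in the results was not tested. In such bulk libraries, fewer cells of a type and less RNA per cell cannot be told apart.

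Glycine tRNAs held 743250 of the 1255147 counts of the 3 amino acids, alanine tRNAs 313812 and proline tRNAs 198085. The genes were of nearly 1 length, 71 to 74 bases, so counts were set side by side without a correction for length. How well each tRNA was recovered in the libraries was not tested, so the orders given here are orders of counts. tRNA-Gly-GCC-2, with 8 gene copies, was the most abundant isodecoder at 280196 counts over the 18 libraries, followed by tRNA-Gly-CCC-1 with 2 copies (219670), tRNA-Gly-TCC-1 with 7 copies (135497) and tRNA-Ala-AGC-4 with 2 copies (106260). The order varied between libraries. tRNA-Gly-GCC-2 led in every astrocyte and neuron library, whereas tRNA-Gly-CCC-1 led in the 3 WT microglia libraries (6881, 3509 and 6270 CPM against 5745, 3506 and 5020 CPM) and tRNA-Ala-AGC-4 in KIN microglia replicate 1 (3307 CPM against 3039 CPM of tRNA-Gly-GCC-2). Of the proline isodecoders, tRNA-Pro-TGG-2 held 71483 counts, tRNA-Pro-CGG-1 57926 and tRNA-Pro-AGG-1 52255. At the other end, tRNA-Ala-CGC-4, tRNA-Ala-CGC-6, tRNA-Ala-CGC-7 and tRNA-Pro-TGG-3 held 2 to 40 counts in all and passed the count filter in no comparison.

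The number of gene copies did not order the counts of the isodecoders, since tRNA-Gly-CCC-1 and tRNA-Ala-AGC-4 with 2 copies each stood above tRNA-Pro-AGG-1 with 6. Counts were close to equal between the copies of an isodecoder: for the 12 isodecoders with several copies of at least 1000 counts each, the highest copy held 1.00 to 1.03 times the lowest. A read that matches several identical genes was placed once, so single copies could not be told apart and were not compared. Isodecoders of 1 anticodon also differ by few bases, and a low isodecoder beside an abundant relative is therefore less certain than the anticodon sum.

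**Figure D1:**
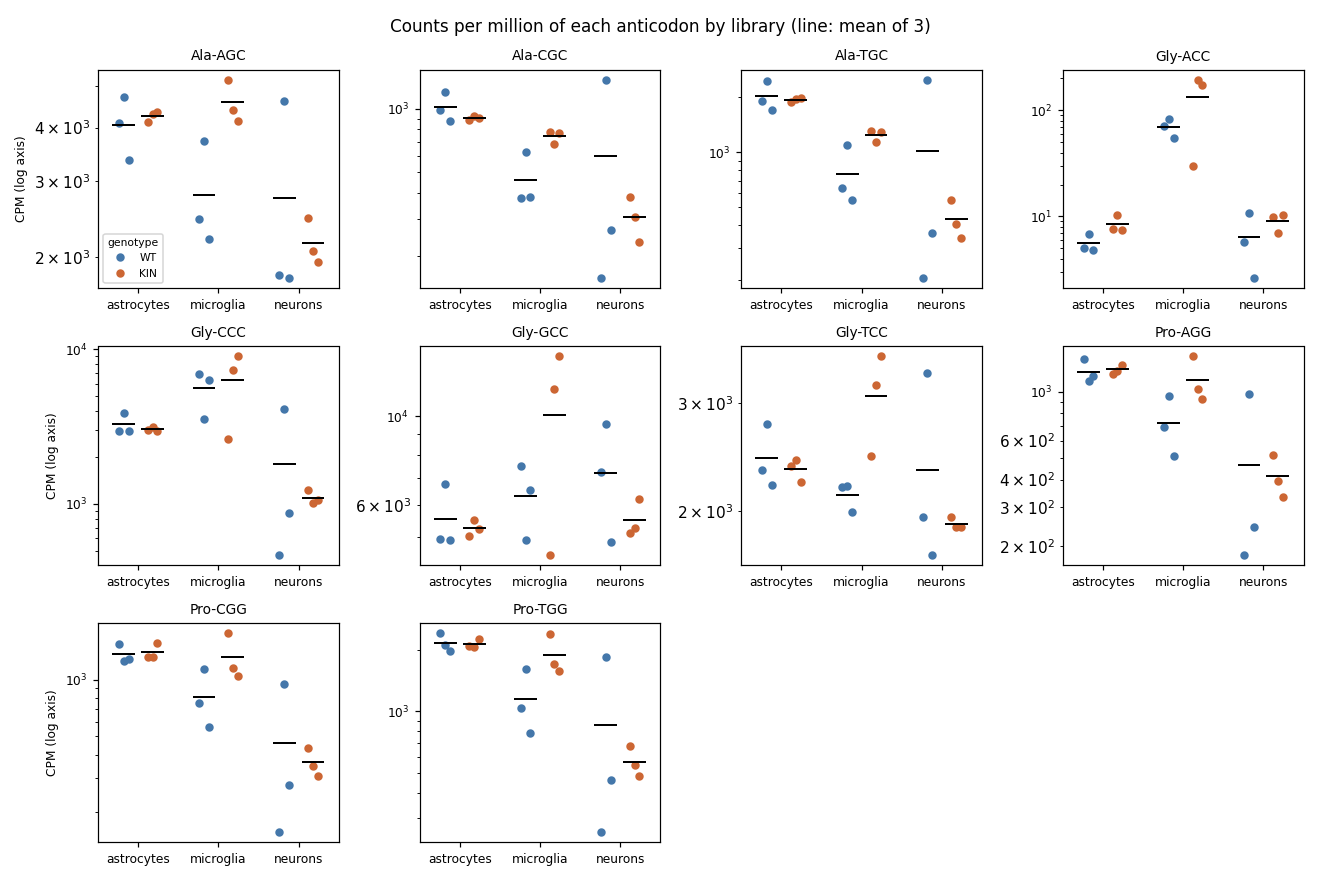
CPM, counts scaled to the library total (log axis), for each of the 10 anticodons, in astrocytes, microglia and neurons of WT and KIN mice. Each point is 1 library and each line the mean of 3; tRNA-Gly-ACC was highest in microglia (30.2 to 195 CPM), and WT neurons replicate 2 was the highest WT neuron library in all panels.

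In astrocytes, the alanine tRNAs amounted to 5939 to 8362 CPM in WT and 6888 to 7230 CPM in KIN, the glycine tRNAs to 10072 to 13420 and 10410 to 11101 CPM, and the proline tRNAs to 4437 to 5359 and 4606 to 5158 CPM. Microglia held 3130 to 5447 CPM of alanine tRNA in WT and 6216 to 7255 in KIN, which did not overlap. Glycine tRNA varied most in microglia, from 9614 CPM in KIN replicate 1 to 26801 CPM in KIN replicate 3, with 10738 to 16664 CPM in WT. KIN neurons held 2520 to 3393 CPM of alanine, 8156 to 9150 CPM of glycine and 1124 to 1623 CPM of proline tRNA. WT neurons replicates 1, 2 and 3 held 2172, 8493 and 2411 CPM of alanine tRNA. Their glycine tRNA stood at 9679, 17006 and 7429 CPM and their proline tRNA at 596, 3764 and 983 CPM. WT replicates 1 and 3 thus lay below every KIN neuron library in alanine and proline tRNA, and replicate 2 above.

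As a share of all cytoplasmic tRNA counts, glycine tRNAs held 9.14% to 12.1% in WT astrocytes and 8.60% to 8.93% in KIN astrocytes, 9.49% to 17.8% and 6.86% to 16.2% in WT and KIN microglia, and 16.1% to 32.9% and 14.1% to 20.1% in WT and KIN neurons. The neurons of both genotypes thus lay above the astrocytes of the same genotype without overlap. The difference was 11.4 percentage points in WT (exact two-sided permutation p = 0.1, adjusted 0.325 over 13 shares) and 8.03 points in KIN (exact p = 0.1, adjusted 0.118). With 3 libraries against 3, 0.1 is the smallest p the test can give, so no share could pass 0.05. Proline tRNAs moved the other way, from 3.73% to 4.77% of tRNA counts in astrocytes to 2.02% to 3.56% in neurons.

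**Figure D2:**
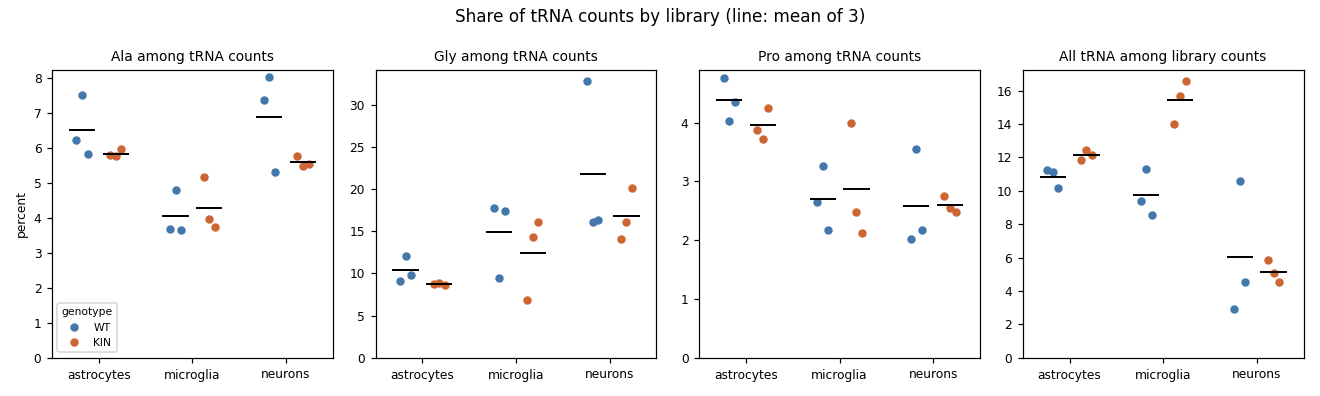
Share (percent) of alanine, glycine and proline tRNA among all cytoplasmic tRNA counts, and of all cytoplasmic tRNA among the counts of the library, by cell type and genotype. Points are libraries and lines the means of 3; the whole tRNA share was 14.0% to 16.6% in KIN microglia and 8.53% to 11.3% in WT microglia.

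Anticodon composition within an amino acid does not depend on how libraries are scaled. Among alanine tRNAs, tRNA-Ala-AGC held 56.2% to 60.2% in astrocytes, 66.8% to 71.3% in microglia and 72.5% to 77.2% in KIN neurons, while the 3 WT neuron libraries gave 83.3%, 54.4% and 73.9%. The low value among these was replicate 2, below every other neuron library and slightly below the astrocyte range. tRNA-Ala-TGC ran the opposite way, with 27.3% to 29.3% in astrocytes, 17.5% to 20.8% in microglia and 13.5% to 16.2% in KIN neurons. tRNA-Ala-CGC was the least abundant alanine anticodon, at 12.5% to 14.8% in astrocytes and 10.7% to 12.4% in microglia.

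Among glycine tRNAs, tRNA-Gly-GCC made up 48.2% to 50.5% of the counts in astrocytes, 44.0% to 52.5% in microglia and 56.1% to 74.9% in neurons. tRNA-Gly-CCC made up 28.3% to 29.3% in astrocytes, 27.2% to 42.2% in microglia and 4.83% to 24.1% in neurons. The neuron libraries lay outside the astrocyte libraries in both anticodons and in both genotypes, with KIN neurons 15.2 percentage points above KIN astrocytes in tRNA-Gly-GCC and 15.6 points below in tRNA-Gly-CCC. tRNA-Gly-TCC, the sole isodecoder of its anticodon, held 20.6% to 22.7% in astrocytes and 19.8% to 23.5% in neurons. In microglia it held 13.1% to 14.3% in 4 libraries but 20.5% in WT replicate 2 and 25.5% in KIN replicate 1.

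Those same libraries, WT microglia replicate 2 and KIN microglia replicate 1, had the lowest glycine share of tRNA among the microglia (9.49% and 6.86%). Their protein-coding share of counts was 3.05% and 2.95% against 4.04% to 4.22% in the other 4, and the part of this in the glycine values was not tested. Proline composition was the most even of the 3. tRNA-Pro-TGG held 41.6% to 48.9% of proline counts in the 18 libraries, tRNA-Pro-CGG 25.2% to 31.5% and tRNA-Pro-AGG 24.9% to 31.7%. Within this narrow range, KIN neurons lay above KIN astrocytes in tRNA-Pro-AGG (29.6% to 31.7% against 25.7% to 26.8%).

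**Figure D3:**
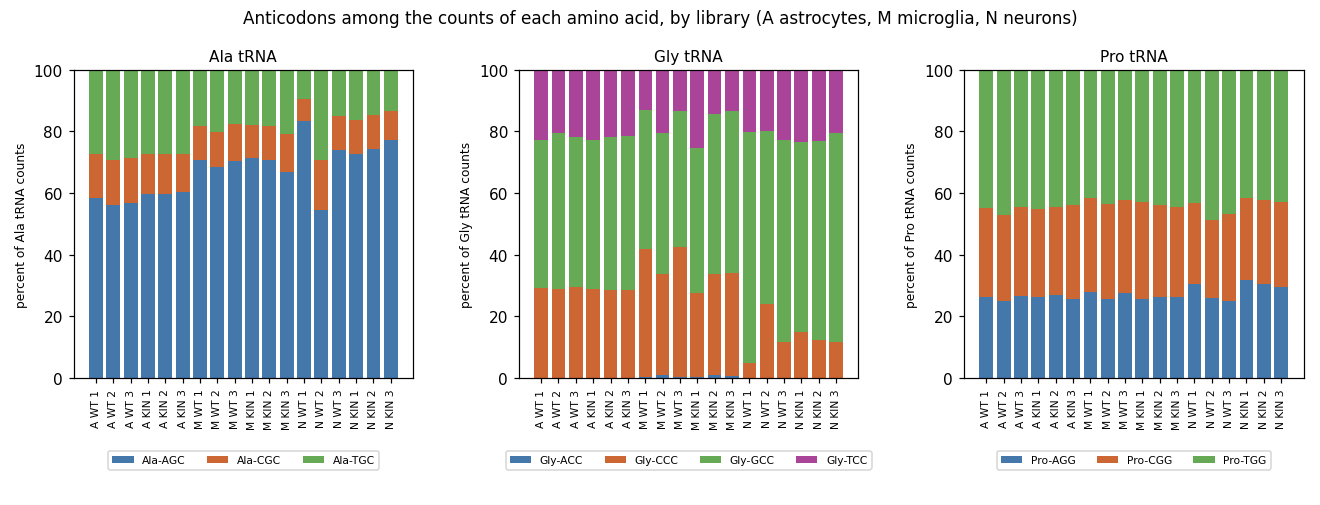
Percent of the alanine, glycine and proline tRNA counts of each library that each anticodon held, for the 18 libraries in the order astrocytes, microglia and neurons, WT before KIN. Bars add to 100 percent; tRNA-Gly-CCC made up 4.83% to 24.1% in neurons against 28.3% to 29.3% in astrocytes.

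Across the 10 anticodon shares, WT microglia and WT astrocytes did not overlap in 9, where 76.9% of the 39 anticodon shares of all cytoplasmic tRNAs did not overlap. The count was 4 in KIN microglia against KIN astrocytes (69.2% over all), 2 in WT neurons against WT astrocytes (25.6%), 8 in KIN neurons against KIN astrocytes (74.4%), 4 in WT neurons against WT microglia (35.9%) and 7 in KIN neurons against KIN microglia (64.1%). Each had an exact permutation p of 0.1, and the adjusted p ranged from 0.118 to 0.325 over these comparisons. Nothing particular to the 3 amino acids is read from these counts.

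The level of an isodecoder was compared with edgeR's quasi-likelihood test over all features of the table, and a call required both an adjusted p no higher than 0.05 and a log2 fold change of 1 or more in size. Between WT microglia and WT astrocytes, 14 of 36 tested members were called, 3 higher and 11 lower in microglia, where 32.7% of all features were called. Between KIN microglia and KIN astrocytes, 12 of 36 were called, 7 higher and 5 lower, against 35.9% of all features. In WT microglia, 9 of 21 alanine members were called lower and 1 higher, where the median log2 fold change of all features was -0.25. In KIN microglia, 5 of 10 glycine members were called higher and none lower, where that median was 0.05. Nothing particular to either amino acid is read from these counts.

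The glycine member with the lowest adjusted p in WT microglia against WT astrocytes was tRNA-Gly-ACC-1, the product of a single gene whose anticodon eukaryotes rarely use for glycine. It stood at 71.1, 83.8 and 54.8 CPM in WT microglia and at 30.2, 195 and 172 CPM in KIN microglia. Astrocytes held 4.86 to 6.78 CPM in WT and 7.52 to 10.3 CPM in KIN, and neurons 2.62 to 10.7 CPM in WT and 7.00 to 10.3 CPM in KIN. Every microglia library lay above every astrocyte and neuron library, with 95 to 842 counts against 4 to 37. The log2 fold change of microglia against astrocytes was 3.74 in WT (SE 0.39, edgeR adjusted p = 2.06e-05) and 4.08 in KIN (SE 0.54, edgeR adjusted p = 6.52e-05). Of neurons against microglia it was -3.64 in WT (SE 0.58, edgeR adjusted p = 0.00093) and -4.38 in KIN (SE 0.49, edgeR adjusted p = 1.33e-07). The first 3 of these values kept their direction and their call under every alternative run, and the last was not rerun.

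tRNA-Gly-GCC-3 was also higher in microglia, at 358 to 715 CPM in WT and 205 to 1263 CPM in KIN against 185 to 301 CPM in astrocytes. Its log2 fold change was 1.31 in WT (SE 0.26, edgeR adjusted p = 0.00245) and 2.00 in KIN (SE 0.45, edgeR adjusted p = 0.0034). The groups overlapped in KIN, since KIN microglia replicate 1 (205 CPM) fell within the astrocyte range. tRNA-Gly-CCC-1 rose by 1.19 in KIN microglia against KIN astrocytes (SE 0.31, edgeR adjusted p = 0.00826), with 2613, 7360 and 8956 CPM against 2934 to 3137 CPM, and again replicate 1 lay below the astrocytes. In WT its value was 0.82 (SE 0.22, edgeR adjusted p = 0.0122), short of the fold threshold. tRNA-Gly-GCC-1, at 188 to 459 CPM in KIN microglia and 106 to 127 CPM in KIN astrocytes, rose by 1.64 (SE 0.26, edgeR adjusted p = 0.000249).

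Of the alanine isodecoders, tRNA-Ala-AGC-3 fell furthest in WT microglia against WT astrocytes, and tRNA-Ala-AGC-3 and tRNA-Ala-TGC-6 fell by nearly the same amount in KIN. Its CPM was 291, 737 and 245 in WT astrocytes, 250, 282 and 243 in KIN astrocytes, and 18.7 to 32.0 in all 6 microglia libraries. The fall was 4.09 on the log2 scale in WT (log2 fold change -4.09, SE 0.50, edgeR adjusted p = 7.03e-05) and 3.51 in KIN (log2 fold change -3.51, SE 0.23, edgeR adjusted p = 1.63e-07). tRNA-Ala-TGC-6 followed the same order, with 71.3 to 96.5 CPM in WT astrocytes, 148 to 167 CPM in KIN astrocytes and 11.1 to 13.7 CPM in microglia. Its log2 fold change of microglia against astrocytes was -2.65 in WT (SE 0.32, edgeR adjusted p = 6.26e-05) and -3.53 in KIN (SE 0.22, edgeR adjusted p = 1.2e-07). tRNA-Ala-AGC-2 fell by 1.74 in WT and 1.35 in KIN (log2 fold changes -1.74 and -1.35, edgeR adjusted p = 0.0015 and 3.72e-05), and tRNA-Ala-TGC-4 by 1.72 in WT (log2 fold change -1.72, edgeR adjusted p = 0.00169).

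tRNA-Ala-AGC-4, the main alanine isodecoder, had no such gap. It stood at 1730 to 2142 CPM in WT astrocytes and 1210 to 2262 CPM in WT microglia, and its log2 fold change was -0.16 (SE 0.32, edgeR adjusted p = 0.72). The anticodon sums tRNA-Ala-TGC (log2 fold change -1.26, SE 0.34, edgeR adjusted p = 0.012) and tRNA-Ala-CGC (-1.01, SE 0.31, edgeR adjusted p = 0.0219) were called lower, while tRNA-Ala-AGC (-0.40, SE 0.30, edgeR adjusted p = 0.306) was not. Both calls were lost without WT astrocytes replicate 2, WT microglia replicate 1 or WT microglia replicate 3 (edgeR adjusted p 0.0631 to 0.0694 for tRNA-Ala-TGC and 0.101 to 0.12 for tRNA-Ala-CGC). Of the proline members, tRNA-Pro-TGG-1 was called lower in WT microglia (log2 fold change -1.0, SE 0.35, edgeR adjusted p = 0.0421), at 126 to 289 CPM against 421 to 465 CPM in astrocytes.

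tRNA-Ala-AGC-8 was the neuron-high member. Its CPM was 36.3, 52.1 and 34.7 in WT neurons and 69.1, 49.4 and 66.4 in KIN neurons, against 7.00 to 12.8 in astrocytes and 1.15 to 2.79 in microglia. The 3 cell types did not overlap in either genotype, on 44 to 162 counts in neurons, 22 to 51 in astrocytes and 4 to 12 in microglia. Against astrocytes it was higher in neurons by 2.02 in WT (SE 0.44, edgeR adjusted p = 0.0087) and 2.14 in KIN (SE 0.28, edgeR adjusted p = 4.12e-06) on the log2 scale. Against microglia the values were 4.42 in WT (SE 0.55, edgeR adjusted p = 0.000279) and 4.14 in KIN (SE 0.38, edgeR adjusted p = 4.65e-09). WT neurons replicate 2, which stood apart from the other neurons in many members, was within their range here by CPM. Its share of alanine counts was 0.614% against 1.44% to 2.63% in the other neurons. The WT call against astrocytes was lost without WT astrocytes replicate 3 (log2 fold change 1.77, edgeR adjusted p = 0.0531). The erythroid marker miR-451a was also highest in WT neurons (62.8 to 280 CPM against 19.1 to 32.4 in WT astrocytes and 16.4 to 20.5 in WT microglia). In KIN it overlapped (38.3 to 70.0 in neurons, 14.5 to 53.7 in astrocytes and 25.7 to 118 in microglia), and miR-144-3p was at most 1.28 CPM in any library. The part of other cells in the level of tRNA-Ala-AGC-8 was not tested.

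**Figure D4:**
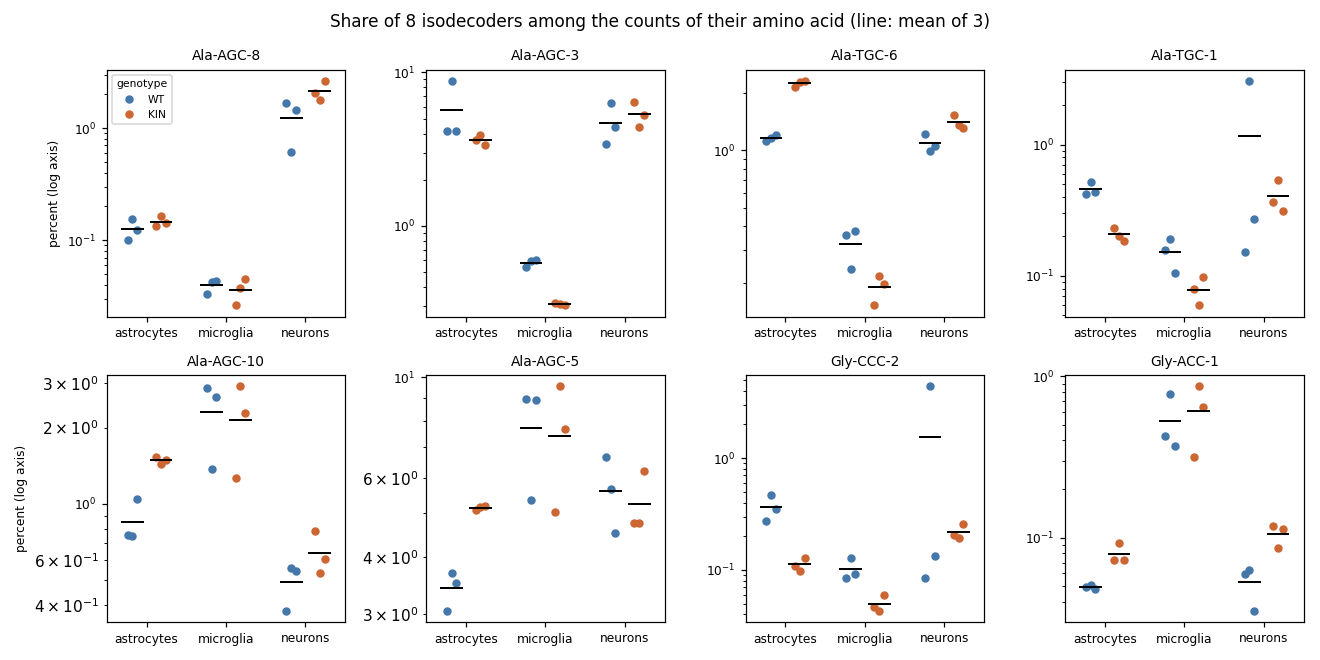
Share (percent, log axis) of 8 isodecoders among the counts of their amino acid, by cell type and genotype; points are libraries and lines the means of 3. tRNA-Ala-AGC-8 was highest in neurons and tRNA-Gly-ACC-1 in microglia, and tRNA-Ala-TGC-6 rose from 1.12%-1.20% in WT astrocytes to 2.15%-2.32% in KIN astrocytes.

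In KIN neurons, 22 of 35 tested members were called against KIN astrocytes, 21 of them lower, where 44.7% of all features were called. Against KIN microglia it was 28 of 35, 25 of them lower, where 51.5% of all features were called. In the anticodon sums, 7 of 10 were called lower than in KIN astrocytes and all 10 lower than in KIN microglia. Of the 39 sums of the other cytoplasmic tRNAs, 33 and 38 were called lower, and over all features of those fits 2076 of 4722 and 2349 of 4600 were called in either direction. tRNA-Pro-TGG-1 had the lowest adjusted p against astrocytes, at 68.5 to 82.8 CPM in KIN neurons and 390 to 424 CPM in KIN astrocytes (log2 fold change -2.81, SE 0.19, edgeR adjusted p = 5.1e-10). It was followed by tRNA-Ala-TGC-2 (-2.69, SE 0.20, edgeR adjusted p = 1.53e-09), tRNA-Pro-CGG-1 (-2.35, SE 0.17, edgeR adjusted p = 1.55e-09), tRNA-Gly-CCC-1 (-1.90, SE 0.14, edgeR adjusted p = 1.94e-09), tRNA-Pro-TGG-2 (-2.23, SE 0.17, edgeR adjusted p = 2.21e-09) and tRNA-Ala-TGC-3 (-2.73, SE 0.21, edgeR adjusted p = 2.69e-09).

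Against KIN microglia, tRNA-Gly-CCC-1 fell by 3.07 (log2 fold change -3.07, SE 0.30, edgeR adjusted p = 1.35e-08) and tRNA-Ala-AGC-10 by 3.40 (log2 fold change -3.40, SE 0.34, edgeR adjusted p = 1.92e-08). tRNA-Ala-AGC-10 stood at 14.8 to 26.5 CPM in KIN neurons against 91.5 to 181 CPM in KIN microglia. tRNA-Pro-TGG-1 (log2 fold change -2.68), tRNA-Pro-CGG-1 (-2.42) and tRNA-Ala-TGC-2 (-2.37) were lower at edgeR adjusted p values of 8.61e-08 to 9.44e-08.

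These directions in neurons depended on the scaling of the libraries. miRNAs made up 0.964% to 2.13% of the counts in neurons and 5.05% to 10.3% in glia, and when TMM factors (edgeR's scaling factors) were taken from mature miRNAs alone, the median of all features moved from -0.04 to 2.76 in KIN neurons against astrocytes and the median of the tested members from -1.30 to 1.54. Relative to the median of all features, the tested members stood at -1.26 with the usual factors and at -1.22 with the miRNA factors. Against KIN microglia, the members stood at -1.57 relative to all features with both, although their own median moved from -1.55 to 0.60. The other cytoplasmic tRNAs had medians of -1.80 against KIN astrocytes and -1.94 against KIN microglia, lower than those of the members.

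In WT neurons the comparison rested on replicate 2. Against WT astrocytes, 4 of 36 tested members were called, 2 higher and 2 lower, where 32.1% of all features were called. The called members were tRNA-Ala-AGC-8 (above), tRNA-Gly-GCC-3 (log2 fold change 1.48, SE 0.36, edgeR adjusted p = 0.013), tRNA-Ala-AGC-6 (-1.34, SE 0.34, edgeR adjusted p = 0.017) and tRNA-Pro-CGG-1 (-1.68, SE 0.56, edgeR adjusted p = 0.0448). With the replicate number as a block, 18 were called, 16 of them lower, where 36.5% of all features were called, and 7 anticodon sums were called where none was without the block. Without WT neurons replicate 2, 25 members and 7 anticodon sums were called, where 33.4% of all features were called in the isodecoder fit, and the median of the tested members moved from -0.49 to -1.91. By the edgeR test without the block, 3 of the 10 anticodon sums had an unadjusted p under 0.05, beside 21 of the 39 other sums. DESeq2 called 3 of the 10, and without its share over all features nothing particular to the members is read from this.

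tRNA-Pro-CGG-1 shows the spread, with 156 and 277 CPM in WT neurons replicates 1 and 3, 949 CPM in replicate 2, and 1254 to 1552 CPM in WT astrocytes. tRNA-Gly-GCC-3 did not share it, at 898, 723 and 519 CPM in WT neurons against 185 to 301 CPM in WT astrocytes. With factors from mature miRNAs, tRNA-Ala-AGC-6 turned to 0.62 and tRNA-Pro-CGG-1 to 0.065. The call of tRNA-Gly-GCC-3 was lost without WT astrocytes replicate 1 or 3 (edgeR adjusted p = 0.0574 and 0.062), that of tRNA-Ala-AGC-6 without WT astrocytes replicate 2 or WT neurons replicate 3 (0.0555 and 0.0691), and that of tRNA-Pro-CGG-1 without any library but WT neurons replicate 2 (0.0917 to 0.132).

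Between WT neurons and WT microglia, 7 of 35 tested members were called, 4 higher and 3 lower, where 30.1% of all features were called. Beside tRNA-Ala-AGC-8 and tRNA-Gly-ACC-1 these included tRNA-Ala-AGC-3, higher in neurons by 3.12 (SE 0.74, edgeR adjusted p = 0.00866), tRNA-Ala-TGC-6, higher by 1.69 (SE 0.55, edgeR adjusted p = 0.0365), tRNA-Gly-CCC-1 (log2 fold change -2.02, SE 0.60, edgeR adjusted p = 0.025) and tRNA-Ala-AGC-10 (-2.05, SE 0.59, edgeR adjusted p = 0.0221). tRNA-Gly-CCC-1 was at 457 and 858 CPM in WT neurons replicates 1 and 3, at 3191 CPM in replicate 2, and at 3509 to 6881 CPM in WT microglia. With the replicate number as a block, 12 members and 5 anticodon sums were called (7 and 1 without it), where 31.2% of all features were called. Without WT neurons replicate 2, 16 members were called, 14 of them lower, where 34.4% of all features were called, and tRNA-Ala-TGC-6 stood at 0.91 (edgeR adjusted p = 0.126). The calls of tRNA-Ala-AGC-3, tRNA-Ala-TGC-6, tRNA-Gly-CCC-1 and tRNA-Ala-AGC-10 were each lost without WT microglia replicate 1 and without replicate 3 (edgeR adjusted p 0.0536 to 0.14). Those of tRNA-Ala-TGC-6, tRNA-Gly-CCC-1 and tRNA-Ala-AGC-10 were also lost without WT microglia replicate 2 (0.055 to 0.0732), and without WT neurons replicate 3 those of tRNA-Gly-CCC-1 and tRNA-Ala-AGC-10 (0.116 and 0.0947). tRNA-Gly-CCC-1 further lost its call without WT neurons replicate 1 (0.051).

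The effect of the expanded Atxn2 repeat was read within each cell type. In astrocytes, 3 of 36 tested members were called, 1 higher and 2 lower in KIN, where 8.23% of all features were called. On the adjusted p alone, 6 members passed, 4 higher and 2 lower, against 11.4% of all features. The called members were low-abundance isodecoders of alanine and glycine, and no proline member was among them.

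tRNA-Ala-TGC-6 was higher in KIN astrocytes, at 148, 164 and 167 CPM, than in WT astrocytes, at 78.2, 96.5 and 71.3 CPM. The genotypes did not overlap, and the log2 fold change was 1.10 (SE 0.18, edgeR adjusted p = 0.00831). As a share of alanine counts, which does not depend on the scaling, it went from 1.12%, 1.15% and 1.20% to 2.15%, 2.28% and 2.32%. tRNA-Ala-AGC-10 rose less (log2 fold change 0.98, SE 0.17, edgeR adjusted p = 0.0109), from 52.8 to 62.6 CPM in WT to 103 to 108 CPM in KIN, likewise without overlap. With TMM factors from mature miRNAs, the value of tRNA-Ala-TGC-6 was 0.45 (adjusted p = 0.193 by edgeR), and its call was also lost when WT astrocytes replicate 3 or either of KIN astrocytes replicates 2 and 3 was left out (adjusted p 0.0591, 0.0669 and 0.0673 by edgeR) and in 1 fit of all 18 libraries (0.0958).

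tRNA-Ala-TGC-1 was lower in KIN astrocytes, at 16.0, 14.5 and 13.4 CPM against 29.3, 43.5 and 26.1 CPM in WT. The groups did not overlap, and the log2 fold change was -1.04 (SE 0.28, edgeR adjusted p = 0.0426). tRNA-Gly-CCC-2 was lower as well, at 11.3, 10.9 and 13.4 CPM against 28.0, 62.8 and 35.5 CPM (log2 fold change -1.70, SE 0.34, edgeR adjusted p = 0.0182). Its abundant relative tRNA-Gly-CCC-1 stood at 2939, 3775 and 2906 CPM in WT and 2990, 3137 and 2934 CPM in KIN (log2 fold change 0.06, SE 0.13, edgeR adjusted p = 0.796). Leaving out WT replicate 3 or KIN replicate 2 or 3 left none of the 36 members called, and leaving out KIN replicate 1 left 1 called. The share of all features called in these fits is not given, and nothing particular to the members is read from these counts. The call of tRNA-Ala-TGC-1 was lost in each of the 6 fits without 1 library (adjusted p 0.0896 to 0.131 by edgeR in 5 of them, and a log2 fold change of -0.73 without WT replicate 2), and that of tRNA-Gly-CCC-2 without WT replicate 3 and without each KIN library (0.0733 to 0.095).

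No anticodon sum was called in KIN astrocytes. By edgeR, 1 of the 10 had an unadjusted p under 0.05, and the log2 fold changes ran from -0.03 for tRNA-Ala-CGC to 0.75 for tRNA-Gly-ACC (adjusted p 0.922 and 0.141). Relative to the median of all features (-0.20), the tested members stood at 0.27, and with factors from mature miRNAs at 0.30, although their own median moved from 0.07 to -0.58. In anticodon shares, 4 of 10 did not overlap between the genotypes, where 33.3% of the anticodon shares of all cytoplasmic tRNAs did not. tRNA-Ala-AGC went from 57.1% ± 1.21 to 59.9% ± 0.219 of alanine counts (SD, n = 3 in each), tRNA-Ala-CGC from 14.4% ± 0.320 to 12.8% ± 0.218, tRNA-Ala-TGC from 28.4% ± 0.992 to 27.3% ± 0.0435 and tRNA-Gly-ACC from 0.0494% ± 0.00116 to 0.0792% ± 0.0118 of glycine counts. All 4 had an exact permutation p of 0.1, adjusted 0.26.

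The marker miRNAs of other cell types also differed in astrocytes. The 3 myeloid markers summed to 10.2 to 12.6 CPM in WT and 25 to 48.5 CPM in KIN, with 2 of 3 higher without overlap. The 2 oligodendrocyte markers summed to 830 to 1496 CPM in WT and 1510 to 2148 CPM in KIN, with 1 of 2 higher without overlap. Of the 2 neuronal markers, which summed to 1105 to 2658 CPM in WT and 845 to 1716 CPM in KIN, miR-138-5p was higher in KIN without overlap (90.6 to 120 CPM against 168 to 203 CPM). The part of these cell types in the tRNA values of KIN astrocytes was not tested.

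In microglia, none of 35 tested members was called between KIN and WT by edgeR, where 6.35% of all features were called. On the adjusted p alone, 2 passed, against 6.87% of all features. At an unadjusted p under 0.05 by edgeR, 19 of the 35 passed, beside 88 of 141 other cytoplasmic tRNAs and 1110 of 4786 features. DESeq2 called 2 members, and without its share over all features nothing particular to the members is read from this. The edgeR log2 fold change was above 0 in 33 of the 35, with a median of 0.81, while it was above 0 in 2102 of 4786 features over the whole table, with a median of -0.09. The other cytoplasmic tRNAs had a median of 0.93.

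The anticodon sums gave the same picture, with log2 fold changes between 0.46 for tRNA-Gly-CCC (SE 0.35, edgeR adjusted p = 0.496) and 1.11 for tRNA-Gly-ACC (SE 0.50, edgeR adjusted p = 0.206). tRNA-Gly-TCC came nearest to the threshold (0.78, SE 0.23, edgeR adjusted p = 0.0612), from 2187, 2198 and 1994 CPM in WT to 2454, 3210 and 3571 CPM in KIN, without overlap. None of the 10 sums was called, and 9 had an unadjusted p under 0.05 by edgeR, beside 36 of the 39 other sums. The alanine sum tRNA-Ala-AGC went from 2445, 3727 and 2200 CPM to 5173, 4402 and 4151 CPM, also without overlap (log2 fold change 0.93, SE 0.31, edgeR adjusted p = 0.0912). The proline sums overlapped, as in tRNA-Pro-TGG with 1035, 1613 and 785 CPM in WT and 2399, 1708 and 1566 CPM in KIN (log2 fold change 0.94, SE 0.36, edgeR adjusted p = 0.133).

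The isodecoders that passed on the adjusted p alone were tRNA-Gly-GCC-4, at 851, 840 and 731 CPM in WT and 1079, 1408 and 1631 CPM in KIN (log2 fold change 0.99, SE 0.23, edgeR adjusted p = 0.0326), and tRNA-Ala-AGC-5 (0.94, SE 0.23, edgeR adjusted p = 0.0364). Without WT microglia replicate 2, which held the highest WT level of each alanine and proline anticodon, 16 isodecoders and 6 anticodon sums were called higher, all of the alanine and proline anticodons, where 16.8% of all features were called in the isodecoder fit. Without KIN microglia replicate 1, 7 isodecoders and 2 sums were called higher, where 7.23% of all features were called, and the sums were tRNA-Gly-ACC (1.55, edgeR adjusted p = 0.009) and tRNA-Gly-GCC (1.23, edgeR adjusted p = 0.00834). Factors from mature miRNAs turned tRNA-Gly-CCC to -0.038 and kept the other 9 sums above 0. Relative to all features, the tested members stood at 0.90 with the usual factors and at 0.93 with those.

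In the composition of microglia, 1 of the 10 anticodon shares did not overlap between the genotypes, where 15.4% of all anticodon shares did not. It was tRNA-Gly-GCC, at 45.0% ± 0.911 of glycine counts in WT and 50.5% ± 3.08 in KIN (SD, n = 3 in each, exact permutation p = 0.1, adjusted 0.867). tRNA-Gly-CCC went from a mean of 38.8% to 31.2%, a difference of -7.63 percentage points, and overlapped (exact permutation p = 0.2, adjusted 0.867). Markers of other cells differed here too, since the neural miR-9-5p was at 74.0 to 218 CPM in WT and 52.7 to 62.1 CPM in KIN microglia and the 2 neuronal markers summed to 41.2 to 115 CPM and 28.6 to 34.7 CPM. The oligodendrocyte marker miR-338-3p (16.7 to 18.0 CPM in WT and 21.3 to 30.1 CPM in KIN) and the erythroid marker miR-451a (16.4 to 20.5 and 25.7 to 118 CPM) were higher in KIN microglia without overlap. The other oligodendrocyte marker, miR-219a-2-3p, overlapped and had a lower mean in KIN (2.30 to 3.54 CPM in WT and 1.27 to 2.55 CPM in KIN). The other erythroid marker, miR-144-3p, was at 0 CPM in WT and 0 to 0.695 CPM in KIN. The part of all these in the tRNA values was not tested. The myeloid markers themselves summed to 2835 to 3389 CPM and 3097 to 5914 CPM, with none of 3 free of overlap.

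**Figure D5:**
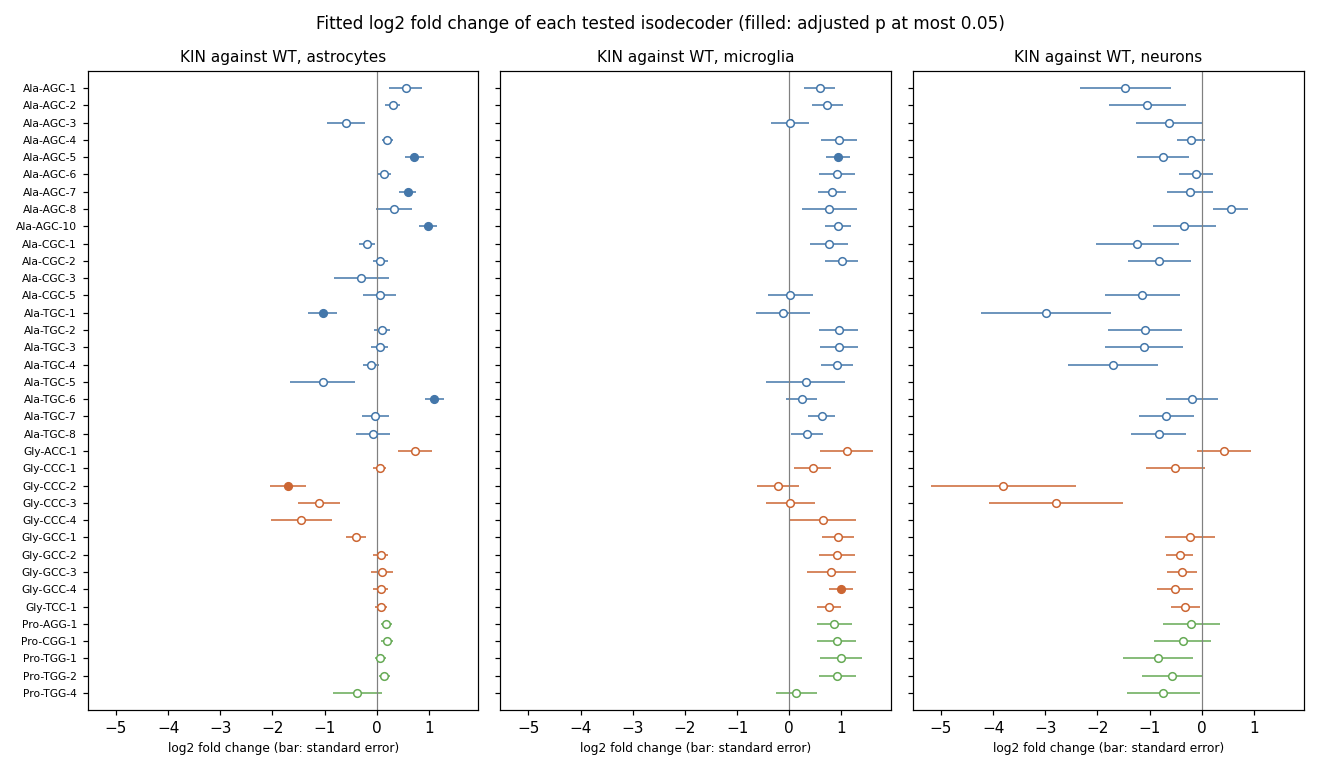
Fitted log2 fold change of KIN against WT (bar: standard error) for each tested alanine, glycine and proline isodecoder in astrocytes, microglia and neurons, with edgeR's TMM factors from all features. Filled points passed an adjusted p of 0.05; in microglia 33 of 35 lay above 0 and in neurons 2 of 33, and without WT neurons replicate 2 it was 29 of 33 in neurons, while factors from mature miRNAs left 25 of 35 above 0 in microglia and 4 of 36 in astrocytes, where 23 lay above 0.

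In neurons, none of 33 tested members was called between KIN and WT, and 0% of all 4381 features were called with or without the fold threshold (0% in each). At an unadjusted p under 0.05, 2 of the 33 members passed by edgeR, from which nothing is read, and DESeq2 called none. The log2 fold change was below 0 in 31 of 33, with a median of -0.63 against -0.12 for all features. That sign rested on WT neurons replicate 2: without it, 29 of 33 were above 0, the median was 0.62, and still none was called.

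tRNA-Ala-TGC is an example. It stood at 205, 2498 and 362 CPM in WT and at 550, 407 and 341 CPM in KIN, with a log2 fold change of -1.28 (SE 0.74, edgeR adjusted p = 0.852) that became 0.59 without replicate 2. tRNA-Gly-CCC-2 was more extreme, with 8.26, 747 and 9.82 CPM in WT and 15.7 to 23.5 CPM in KIN, that is 10, 1462 and 15 counts against 38 to 57. tRNA-Ala-AGC-8, the neuron-high member, was less affected, at 34.7 to 52.1 CPM in WT and 49.4 to 69.1 CPM in KIN (log2 fold change 0.55, SE 0.33, edgeR adjusted p = 0.864), and these overlapped.

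Of the 10 anticodon shares, 2 did not overlap between KIN and WT neurons. They were also the only 2 among the 39 anticodon shares of all cytoplasmic tRNAs (5.13%), which include the 10. Nothing particular to the members is read from this count. tRNA-Gly-ACC went from 0.0527% ± 0.0152 to 0.106% ± 0.0173 of glycine counts and tRNA-Pro-TGG from 46.4% ± 2.89 to 42.3% ± 0.660 of proline counts (SD, n = 3 in each, exact permutation p = 0.1, adjusted 0.65 for both). tRNA-Gly-ACC rested on 4 to 25 counts per neuron library. Of the marker miRNAs, only miR-9-5p did not overlap in neurons, at 519 to 1635 CPM in WT and 1668 to 3052 CPM in KIN. The myeloid markers summed to 42.9 to 225 CPM in WT and 173 to 377 CPM in KIN neurons. The part of these cells in the tRNA values was not tested.

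Whether the KIN effect differed between microglia and astrocytes was tested as an interaction over the 12 glial libraries. None of 36 tested members was called by edgeR, where 0.377% of all features were called, and 11 had an unadjusted p under 0.05, beside 30 of 143 other cytoplasmic tRNAs and 695 of 6899 features. DESeq2 called 2, and without its share over all features nothing particular to the members is read from this. By edgeR, the effect was larger in microglia in 33 of the 36, with a median difference of 0.74 on the log2 scale against -0.08 for all features. Of the other cytoplasmic tRNAs, 129 of 143 were above 0, with a median of 0.54. Without WT astrocytes replicate 2, the members' median was 0.42 and 24 of the 36 were above 0. tRNA-Gly-GCC-1 had the lowest adjusted p (1.36, SE 0.40, edgeR adjusted p = 0.151), with 137 to 211 CPM in WT and 106 to 127 CPM in KIN astrocytes but 180 to 220 CPM in WT and 188 to 459 CPM in KIN microglia. tRNA-Ala-TGC-6 ran the other way (-0.85, SE 0.34, edgeR adjusted p = 0.355). Without WT microglia replicate 2, 11 members were called, where 4.06% of all features were called.

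Mitochondria make their own alanine, glycine and proline tRNAs from single genes on mitochondrial DNA. Their sequences are shown because they are the mitochondrial counterparts of the members and were read by the same libraries. They are the gene sequences of GRCm39, the build of the files, printed 5′ to 3′ on the tRNA strand without the CCA end, with the anticodon in capitals. mt-Ta lies at chrM:5018-5086 on the minus strand, mt-Tg at chrM:9391-9458 on the plus strand and mt-Tp at chrM:15356-15422 on the minus strand, and the anticodon is at bases 31 to 33 of each.
mt-Ta: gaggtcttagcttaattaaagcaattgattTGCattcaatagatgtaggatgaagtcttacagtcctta
mt-Tg: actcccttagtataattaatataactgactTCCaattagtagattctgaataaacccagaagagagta
mt-Tp: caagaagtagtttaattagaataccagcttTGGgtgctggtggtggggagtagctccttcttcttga

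mt-Tg was the most abundant of these in every library, at 5076 to 5524 CPM in WT astrocytes and 3924 to 4586 CPM in KIN astrocytes. mt-Tp went from 1786, 1652 and 1653 CPM in WT astrocytes to 968, 978 and 1181 CPM in KIN astrocytes. The genotypes did not overlap in either gene. Lower values in KIN astrocytes passed the adjusted p, though not the fold threshold, for mt-Tp (log2 fold change -0.55, SE 0.11, edgeR adjusted p = 0.0165) and not for mt-Ta (-0.36, SE 0.10, edgeR adjusted p = 0.0504) or mt-Tg (-0.17, SE 0.09, edgeR adjusted p = 0.186). In KIN microglia the 3 had log2 fold changes of 0.49 to 0.53 at edgeR adjusted p values of 0.189 to 0.228.

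Between cell types, all 3 were called lower in WT microglia than in WT astrocytes (log2 fold changes -2.23, -1.84 and -1.78, edgeR adjusted p at most 7.77e-05) and in neurons than in astrocytes of both genotypes. In KIN neurons the log2 fold changes against KIN astrocytes were -3.67, -3.48 and -2.92 with the usual TMM factors, the only scaling run for these genes. WT neurons replicate 2 held 2490 CPM of mt-Tg against 123 and 446 CPM in replicates 1 and 3, the same library that stood apart in the cytoplasmic members.

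The protein-coding genes of the pathway were nearly absent from these libraries, which hold small RNAs, and fragments of their mRNAs are no measure of the mRNA. The 15 genes were the cytoplasmic and mitochondrial synthetases for alanine, glycine and proline (Aars1, Aars2, Gars1, Eprs1, Pars2), the wobble deaminase subunits Adat2 and Adat3, the RNA polymerase III regulators Maf1 and Brf1, the nucleases Ang, Rnase4, Dicer1 and Elac2, the nuclease inhibitor Rnh1, and Ssb, the La protein that binds the 3′ end of new RNA polymerase III transcripts. None had more than 20 counts in a library, 4 passed the filter in each genotype comparison, and none of these was called. Between cell types, Ssb was called higher in neurons, with 7 to 20 counts per neuron library against 1 to 6 in astrocytes and 0 to 4 in microglia (log2 fold change against astrocytes 2.03 in WT and 2.21 in KIN, edgeR adjusted p = 0.0337 and 0.00229). Rnase4 was called higher in microglia, with 5 to 12 counts against 0 to 3 in astrocytes (log2 fold change 3.70 in WT and 2.18 in KIN, edgeR adjusted p = 0.00406 and 0.0341), and it shares its locus and first exons with Ang, so reads there are uncertain, and fold changes on so few counts depend on the prior count of the fit.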

How the data were processed

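Small RNA libraries of 18 samples were analysed. The authors trimmed reads with cutadapt 4.6 and checked them with FastQC 0.11.9 and MultiQC 1.23. With Bowtie2 2.4.4 in local mode they aligned them in turn to miRNA, tRNA, piRNA, Ensembl noncoding RNA and cDNA sequences of mm39. Each step took only the reads left by the one before, and features were counted with HTSeq 2.0.2. The deposited table held whole-number counts, not normalized, for 203513 features, of which 86922 had at least 1 count. Its 36 columns of per-library values on other scales, and columns of the authors' own comparisons (fold changes and p-values from DESeq2), were not used. No row lacked a feature name.

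tRNA gene copies were summed per isodecoder and, in a second table, per anticodon, and all other features stayed as deposited. Counts were tested with edgeR 4.0.16 (R 4.3.3, limma 3.58.1; glmQLFit and glmQLFTest, TMM factors), with Benjamini-Hochberg adjustment over all features that reached 5 counts in 2 or more libraries. CPM are counts scaled to the library total, without TMM. Shares were compared by exact two-sided permutation over libraries in Python 3.11.15 (pandas 2.3.3, numpy 2.4.6), adjusted over 13 shares per comparison. Scripts were tested on simulated data.

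The isodecoders named were the 4 with the most counts in each amino acid and up to 6 called with the smallest adjusted p in each comparison; others named in the text were chosen after their values were seen. Members and lists were chosen with earlier results of these data known. Alternatives were DESeq2 1.42.0, library totals, TMM factors from mature miRNAs, no filter, leaving out each library, 1 fit of all 18 libraries, the replicate number as a block, and each gene copy as a feature.

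The study isolated the 3 cell types in sequence from a brain, but the labels do not say that a replicate number marks a brain, so p-values measure the spread between these libraries. Nor do the labels name the littermate pairs that the paper describes, and the main fits were not paired. Over 3319 features, the deviations of same-numbered libraries from their group means correlated above 0.1 in every pair only for WT neurons and WT astrocytes (r 0.144 to 0.359), and the blocked values are given there and, since the block moved its counts, for WT neurons against WT microglia. Comparisons of cell types within a genotype share libraries and are not independent.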

Additional observations from a re-analysis of the deposited data

Results flagged for a closer look

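The share of tRNA-Ala-TGC-6 differed by genotype in opposite directions in different cell types, without overlap. It was found by searching shares and levels of the members, among them those of the 40 isodecoders and 10 anticodons, for such moves. The number searched was not allowed for, and 3 libraries against 3 separate at an exact permutation p no smaller than 0.1. Its share of alanine tRNA counts was 1.09 percentage points higher in KIN than in WT astrocytes (means of 3 libraries) and 0.313 points higher in KIN than in WT neurons, while the difference in microglia was -0.133 points. WT microglia had shares of 0.358%, 0.238% and 0.375%, above the 0.153%, 0.220% and 0.198% of KIN microglia, on 35 to 59 counts per library. Its level in microglia overlapped, at 12.4, 13.0 and 11.7 CPM in WT and 11.1, 13.7 and 12.3 CPM in KIN, while the alanine tRNAs as a whole, the base of the share, went from 3130 to 5447 CPM to 6216 to 7255 CPM. WT neurons had 1.22%, 0.993% and 1.06%, below the 1.53%, 1.37% and 1.31% of KIN neurons. The differences between these shares were not tested. For the level of tRNA-Ala-TGC-6, the interaction of genotype with microglia against astrocytes was -0.85 on the log2 scale (SE 0.34, edgeR unadjusted p = 0.0228, adjusted p = 0.355), which did not pass.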

How the results depend on the processing

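Of 279 counts of called members or of shares without overlap under all alternatives, 222 were within 1.5 times the main count, and the results named here are the exceptions. In this section, counts of called members stand without the share of all features called in the same fit. Nothing particular to the members is read from them. Of the alternatives that kept every library, the miRNA scaling moved the most values, and the cause was not tested. With TMM factors from mature miRNAs, KIN against WT in astrocytes gave 6 called isodecoders (3 with factors from all features), and the log2 fold changes turned to -0.45 for tRNA-Ala-AGC, -0.57 for tRNA-Ala-TGC, -0.61 for tRNA-Gly-CCC, -0.58 for tRNA-Gly-GCC and tRNA-Gly-TCC, -0.54 for tRNA-Pro-AGG, -0.51 for tRNA-Pro-CGG and -0.57 for tRNA-Pro-TGG. In microglia tRNA-Gly-CCC turned to -0.038, and in neurons tRNA-Pro-AGG turned to 0.051 and 3 isodecoders were called. WT neurons had 20 called isodecoders and 4 called anticodon sums against astrocytes, with tRNA-Ala-AGC-6 at 0.62 and tRNA-Pro-CGG-1 at 0.065, and 20 and 6 against microglia. The median of all features was then 1.58 in WT neurons against astrocytes and 1.48 against microglia. Those of the tested members were 1.39 and 1.36. KIN neurons had 4 called sums against astrocytes, and tRNA-Pro-TGG-1 turned to 0.018, tRNA-Ala-TGC-2 to 0.11, tRNA-Pro-CGG-1 to 0.45, tRNA-Gly-CCC-1 to 0.93, tRNA-Pro-TGG-2 to 0.58 and tRNA-Ala-TGC-3 to 0.061. Their sums turned to 1.43 for tRNA-Ala-AGC, 0.85 for tRNA-Ala-CGC, 0.23 for tRNA-Ala-TGC, 0.95 for tRNA-Gly-CCC, 0.79 for tRNA-Pro-AGG, 0.45 for tRNA-Pro-CGG and 0.49 for tRNA-Pro-TGG. Against KIN microglia, 12 isodecoders and 1 sum were called, and the sums turned to 0.49 for tRNA-Ala-AGC, 0.31 for tRNA-Ala-CGC, 0.040 for tRNA-Ala-TGC, 0.86 for tRNA-Gly-GCC, 0.96 for tRNA-Gly-TCC and 0.086 for tRNA-Pro-AGG.

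With library totals, tRNA-Ala-TGC (-0.063), tRNA-Gly-CCC (-0.10), tRNA-Gly-GCC (-0.078), tRNA-Gly-TCC (-0.058) and tRNA-Pro-TGG (-0.020) turned in KIN astrocytes, and 1 sum was called in WT neurons against astrocytes. With DESeq2, tRNA-Ala-CGC turned to 0.065 in KIN astrocytes, 2 isodecoders were called in KIN microglia, 7 isodecoders and 3 sums in WT neurons against astrocytes, 2 sums in WT neurons against microglia, and 2 isodecoders in the interaction. Without the filter, 1 isodecoder was called in KIN microglia, 5 in KIN neurons, 17 in WT neurons against astrocytes and 11 against microglia. The fit of all 18 libraries called 0 in KIN astrocytes. With the replicate block, 18 isodecoders and 7 sums were called in WT neurons against astrocytes and 12 and 5 against microglia, and tRNA-Pro-AGG (0.21) and tRNA-Pro-CGG (0.050) turned in KIN neurons. The block moved no other count of calls by over 1.5 times.

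Leaving out each library in turn gave 0 to 4 called isodecoders in KIN astrocytes, with log2 fold changes of -0.18 to 0.16 for tRNA-Ala-CGC, -0.077 to 0.30 for tRNA-Ala-TGC, -0.081 to 0.23 for tRNA-Gly-CCC, -0.069 to 0.29 for tRNA-Gly-GCC and -0.025 to 0.24 for tRNA-Gly-TCC. In KIN microglia it gave 0 to 16 isodecoders and 0 to 6 sums, the highest without WT microglia replicate 2. In KIN neurons the values ran from -0.64 to 0.22 for tRNA-Ala-AGC, -1.45 to 0.53 for tRNA-Ala-CGC, -1.77 to 0.59 for tRNA-Ala-TGC, -1.22 to 0.70 for tRNA-Gly-CCC, -0.55 to 0.022 for tRNA-Gly-TCC, -0.60 to 0.93 for tRNA-Pro-AGG, -0.79 to 0.73 for tRNA-Pro-CGG and -1.06 to 0.64 for tRNA-Pro-TGG, each highest value without WT neurons replicate 2. It gave 1 to 6 sums in WT microglia against astrocytes, 1 to 25 isodecoders and 0 to 7 sums in WT neurons against astrocytes, 2 to 16 and 1 to 7 in WT neurons against microglia, 1 to 3 sums in KIN microglia against astrocytes, and 0 to 11 and 0 to 4 in the interaction. Anticodon shares without overlap numbered 1 to 4 in KIN microglia, 2 to 4 in KIN neurons, 2 to 5 in WT neurons against astrocytes and 4 to 7 in KIN microglia against astrocytes. Low counts, such as the 4 to 12 of tRNA-Ala-AGC-8 per microglia library, limit the precision of the rarer isodecoders.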
